A study of Rattus norvegicus with 2 samples.

Results

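The genes described here are the collagens, laminins and nidogens, 54 of the 30017 gene symbols counted in single cells of rat dorsal root ganglia (DRGs). They were taken by name alone, as every symbol written Col, a number, a and a number, every Lama, Lamb or Lamc with a digit, and Nid1 and Nid2. They comprise 42 collagen chains, 10 laminin chains and 2 nidogens, each with a single identifier. Chains that lack such a symbol in the counts, such as Col1a2, Col6a3 and Lama3, were not analysed here.

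Collagens are built of chains wound into triple helices. The fibrillar types (such as I, II, III, V and XI) form rope-like fibres, and some of them those of the endoneurium and epineurium. Collagen IV instead forms the sheet of the basement membrane. Laminins are trimers of an alpha, a beta and a gamma chain that cells bind through integrins and dystroglycan, and nidogens link the laminin sheet to collagen IV. In peripheral nerve, Schwann cells (SCs) and satellite glial cells (SGCs) lie on a basement membrane, and so do the endothelium and the muscle cells of vessels, while fibroblasts lie in the fibrillar matrix between them.

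The study compared male Sprague-Dawley rats with diabetic peripheral neuropathy (DPN) and control rats. The animals were 8 weeks old when bought and received either 65 mg/kg of streptozotocin (STZ), a toxin of the insulin-producing beta cells, or citrate buffer alone (0 mg/kg STZ). Bilateral DRGs of lumbar levels 3 to 6 were taken 8 weeks after the injection, and the ganglia of 5 rats were pooled into 1 library per condition. STZ lesions the beta cells directly and the pools do not keep single rats apart, so that 1 control library and 1 DPN library are all that can be compared. There is therefore no test, and a difference between the libraries cannot be told apart from one between rats or preparations.

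The counts are unique molecular identifiers (UMIs), each standing for a captured molecule. Of 11011 control barcodes (121101966 UMIs) and 13168 DPN barcodes (115409375 UMIs), 9798 and 11013 had at least 1000 UMIs and under 20% of them from mitochondrial (Mt-) genes. Medians of 9928 UMIs (control) and 6446 UMIs (DPN) were counted in each kept cell, and 31 barcodes occurred among the kept cells of both libraries. Cells were assigned to 5 classes by marker counts per 10000 UMIs. The gates took 4135 control and 3012 DPN cells as SGCs (Fabp7 and Tyrp1), 347 and 481 as myelinating SCs (Prx, Mag and Cldn19), 802 and 1213 as endothelium (Cldn5, Flt1 and Cdh5), 385 and 584 as smooth muscle (Myh11), and 211 and 328 as fibroblasts (Lum). Cells that passed more than 1 gate, which doublets would do, numbered 67 and 106 and were kept.

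The marker list of each gated cell type includes the genes of its own gate, so that part of its sum there is fixed by the gate rule. No sum without the gate genes was taken. The summed level of the 8 fibroblast markers was 142320 UMIs per 1000000 UMIs (CPM) in the fibroblasts of the control library and 92903 CPM in those of the DPN library. In the other 4 gates this sum lay between 78.5 CPM and 1084 CPM. Lum, the gate gene, gave 3006 CPM and 2091 CPM of the fibroblast sums. Dcn, a fibroblast marker that is not a gate gene, had 31202 CPM and 23194 CPM in fibroblasts. It did not exceed 182 CPM in the other gates. No marker of a gate's own list, gate genes included, was at 0 in either library. Neuron markers (8 genes) gave a higher sum in the DPN library in every gate, for instance 207 CPM and 356 CPM in SGCs and 289 CPM and 873 CPM in myelinating SCs, and none of the 8 was at 0 there. SGC markers (7 genes) in myelinating SCs went the other way, from 1406 CPM in the control to 572 CPM in the DPN library. Red cell markers (3 genes) in myelinating SCs had 6.34 CPM in the control, with 2 of the 3 at 0, and 512 CPM in the DPN library. In smooth muscle, endothelial markers (8 genes, 7 of them counted) had 144 CPM and 382 CPM, macrophage markers (7 genes) 22.9 CPM and 192 CPM, and myelinating SC markers (8 genes) 342 CPM and 754 CPM. Neutrophil markers (4 genes) in smooth muscle were at 229 CPM and 3.18 CPM. In fibroblasts, endothelial markers had 37.7 CPM and 126 CPM. The part of these admixtures in the results, among them the higher Col4a1, Col4a2, Lama4, Lamc1, Col14a1 and Col28a1 of these gates, was not tested.

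Upstream sequences of the chains whose counts are compared most closely are shown first. Of the 54 genes, 42 matched a promoter window of RefSeq (build GRCr8) by symbol. The genes Col4a1 and Col4a2 lie head to head, with 76 bases between their start sites at chr16:84885521-84885596, printed here on the plus strand. For the other chains, the 250 bases before the start site are printed 5′ to 3′ on the strand of the gene. They are Lamc1 (chr13:68051987-68052236, minus strand) and Lama4 (chr20:43946648-43946897, plus strand), which had higher counts in the DPN library, and Lamb1 (chr6:53562846-53563095, plus strand) and Nid1 (chr17:93069036-93069285, plus strand), which did not pass the limit of 1.5 described further on. Capitals mark 3 short motifs, which were searched on both strands, with overlapping matches counted separately. The GC box was spelled GGGCGG. The CCAAT box was taken by the letters of its name. The TATA box was spelled TATAAA.
Col4a1/Col4a2: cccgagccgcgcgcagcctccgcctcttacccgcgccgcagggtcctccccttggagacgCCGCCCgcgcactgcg
Lamc1: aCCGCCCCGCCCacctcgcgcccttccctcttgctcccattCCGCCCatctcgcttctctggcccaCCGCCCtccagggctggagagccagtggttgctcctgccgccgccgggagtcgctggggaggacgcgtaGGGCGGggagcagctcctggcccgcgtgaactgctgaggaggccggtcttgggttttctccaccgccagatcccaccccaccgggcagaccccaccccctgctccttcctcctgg
Lama4: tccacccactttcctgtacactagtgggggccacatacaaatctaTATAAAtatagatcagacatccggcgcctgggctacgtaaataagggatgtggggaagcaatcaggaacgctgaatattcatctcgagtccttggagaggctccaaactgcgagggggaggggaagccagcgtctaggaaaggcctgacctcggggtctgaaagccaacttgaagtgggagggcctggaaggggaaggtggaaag
Lamb1: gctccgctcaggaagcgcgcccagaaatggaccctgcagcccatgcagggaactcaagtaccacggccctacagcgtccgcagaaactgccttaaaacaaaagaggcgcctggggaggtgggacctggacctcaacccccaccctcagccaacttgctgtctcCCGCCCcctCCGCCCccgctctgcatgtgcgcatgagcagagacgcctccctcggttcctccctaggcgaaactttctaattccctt
Nid1: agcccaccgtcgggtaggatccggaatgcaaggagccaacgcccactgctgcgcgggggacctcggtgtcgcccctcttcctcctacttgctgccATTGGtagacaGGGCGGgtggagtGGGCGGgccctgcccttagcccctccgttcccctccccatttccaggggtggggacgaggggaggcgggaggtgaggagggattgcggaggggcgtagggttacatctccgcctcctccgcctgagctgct

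The Lamc1 window held 5 GC boxes, and the Lama4 window held 1 TATA box and none of the other motifs. Lamb1 held 2 GC boxes and Nid1 held 2 GC boxes and 1 CCAAT box. Among the 42 genes, 25 (59.5%) had a GC box in the 250 bases, against 30.5% of all 33469 windows. A CCAAT box was present in 13 (31.0%, against 34.0%) and a TATA box in 4 (9.52%, against 12.9%). These are matches of letters, not measured binding sites. The set of all windows was not matched to the family by gene type or base content. The windows of Col4a1 and Col4a2 overlap, so that a GC box between their starts counts for both. The starts of Col4a3 and Col4a4 lie 412 bases apart and those of Col4a5 and Col4a6 1414 bases apart, so that all 6 chains of collagen IV come in head-to-head pairs. Neighbouring genes in the annotation also include Col3a1 with Col5a2 and Col6a1 with Col6a2.

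**Figure D1:**
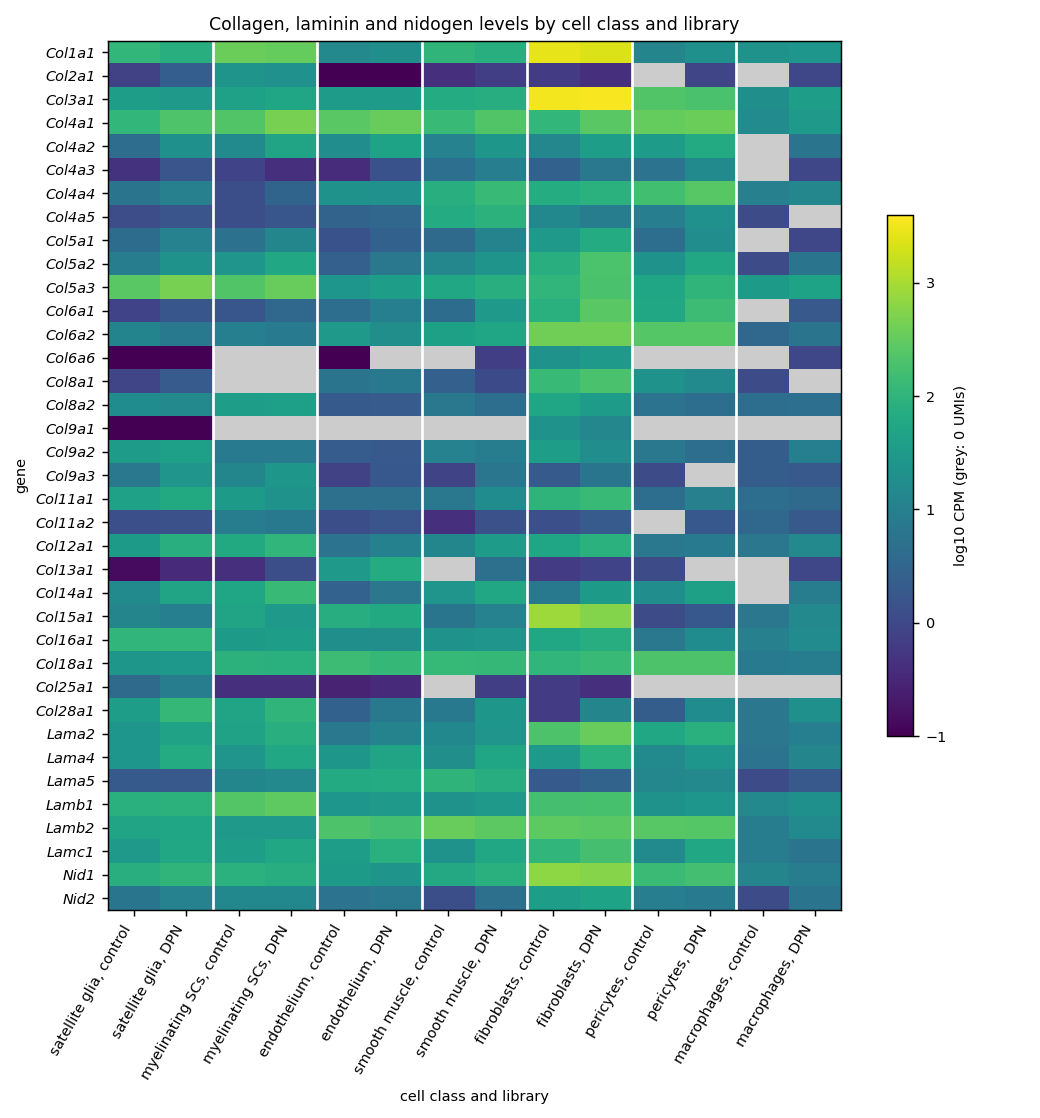
Level of the 37 collagens, laminins and nidogens with at least 50 UMIs in some gate, as log10 CPM in colour, by gene (rows) and by cell class and library (columns), with grey for 0 UMIs. The brightest cells are Col1a1 and Col3a1 in the fibroblasts of both libraries, and macrophages are dark for nearly all genes.

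The fibrillar collagens I and III were highest in fibroblasts. Col1a1, the alpha 1 chain of collagen I, stood at 2736 CPM (exact Poisson 95% interval 2653 to 2820) in control and 2270 CPM (2211 to 2331) in DPN fibroblasts. Myelinating SCs came next with 365 CPM (341 to 391) and 320 CPM (298 to 344), and SGCs and smooth muscle lay between 78.7 CPM and 111 CPM. In endothelium, Col1a1 had 14.9 CPM and 19.9 CPM, with intervals that overlapped those of macrophages (22.5 CPM and 26 CPM). For each UMI of the fibroblast marker Dcn, endothelium held 0.608 (control) and 0.206 (DPN) UMIs of Col1a1, and macrophages held 0.260 and 0.290. Col3a1, the chain of collagen III, was likewise highest in fibroblasts, with 3364 CPM (3272 to 3457) and 3563 CPM (3488 to 3639). In myelinating SCs it had 42.3 CPM (34.4 to 51.4) and 49.8 CPM (41.1 to 59.8). Outside the gates, Col3a1 had 325 CPM (control) and 190 CPM (DPN) in non-myelinating SCs (Scn7a), and 227 CPM and 191 CPM in pericytes. For each UMI of Dcn, non-myelinating SCs held 23.5 and 5.40 UMIs of Col3a1 and pericytes 3.30 and 3.85. Macrophages held 0.221 and 0.419. Dcn, which encodes the proteoglycan decorin and is one of the fibroblast markers, reached only 0.248% and 0.693% of its fibroblast level in myelinating SCs, Col3a1 reached 1.26% and 1.40%, and Col1a1 reached 13.4% and 14.1%. Intervals here and elsewhere cover counting error only.

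The chains of collagen V were divided among the cells. Col5a3 was highest in SGCs (263 CPM in the control and 445 CPM in the DPN library) and in myelinating SCs (225 CPM and 346 CPM), with 15291 and 15022 UMIs in SGCs. Col5a1 and Col5a2 were highest in fibroblasts instead, with 30.4 CPM and 67.7 CPM for Col5a1 and 76.7 CPM and 198 CPM for Col5a2. Col11a1, a partner of collagen V in thin fibrils, was also highest in fibroblasts (97.8 CPM and 128 CPM), followed by SGCs (43.7 CPM and 61.9 CPM). Col2a1, best known from cartilage, was highest in myelinating SCs in both libraries (23.7 CPM and 21.2 CPM) and stayed under 3 CPM in the other gates.

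Of the less studied collagens, some were highest in glia and others in endothelium or fibroblasts. Col16a1 was highest in SGCs of the 5 gates, with 107 CPM (104 to 109) and 112 CPM (108 to 115). Col28a1, a collagen of peripheral nerve, was at 37.5 CPM in control SGCs and 48.2 CPM in control myelinating SCs, and at 115 CPM and 103 CPM in those of the DPN library. It had 1 UMI in control and 30 UMIs in DPN fibroblasts. Col12a1 and Col14a1, which associate with fibrils, were highest in myelinating SCs in both libraries (61.3 CPM and 105 CPM for Col12a1, 51.6 CPM and 127 CPM for Col14a1). For Col12a1 the intervals of fibroblasts (50.9 CPM and 87.3 CPM) overlapped those of myelinating SCs. Col13a1, a transmembrane collagen, belonged to endothelium, with 30.9 CPM and 66.5 CPM there against at most 4.94 CPM in any other gate. Col15a1, a proteoglycan collagen next to basement membranes, was highest in fibroblasts (852 CPM and 566 CPM), and Col18a1, the source of endostatin, was within 83.6 CPM to 140 CPM in all gates but SGCs (27.8 CPM and 29.0 CPM).

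**Figure D2:**
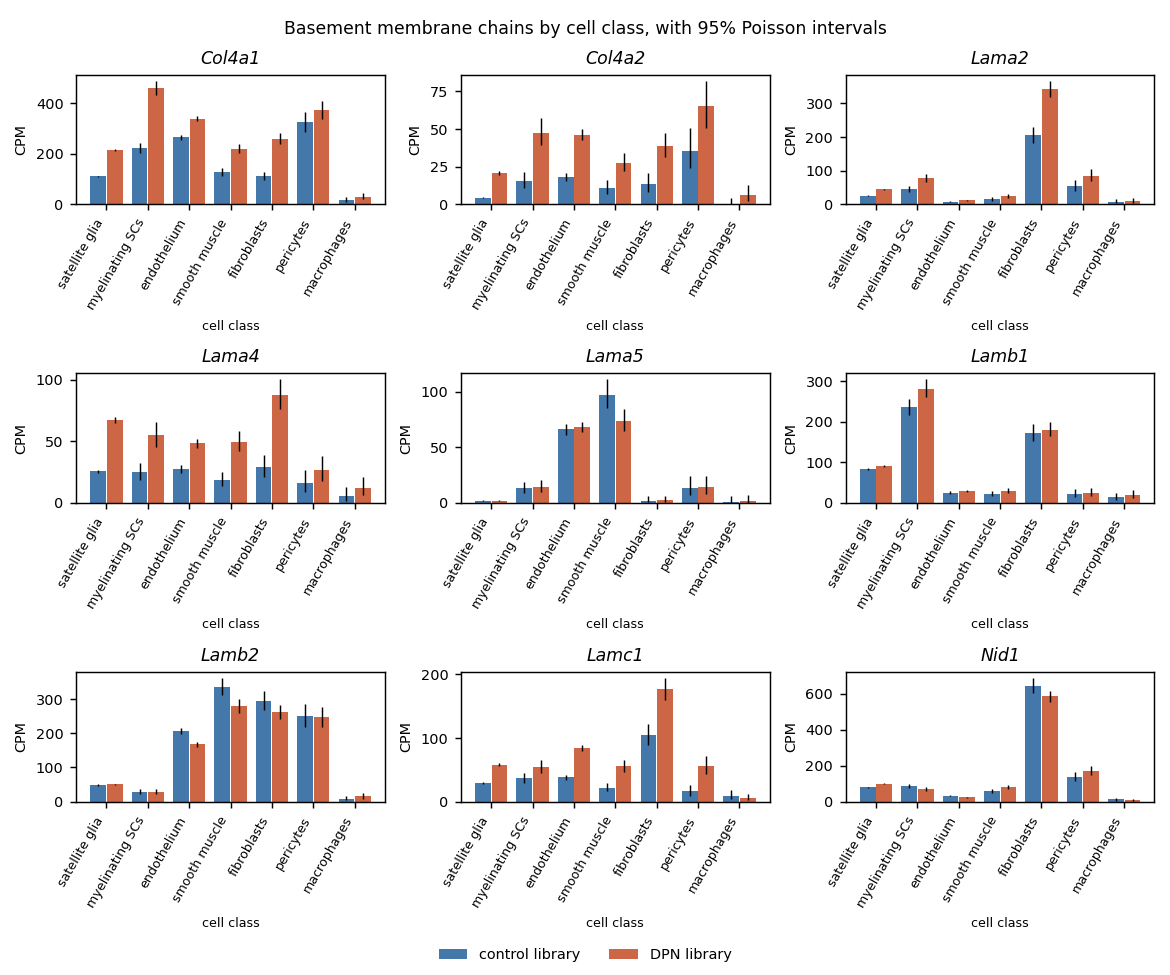
Levels of 9 basement membrane chains in CPM (vertical axes from 0) in 7 cell classes, with control bars in blue, DPN bars in orange and exact Poisson 95% intervals as black lines. Lama5 stands out in endothelium and smooth muscle but not in pericytes, and Lamb2 is high in vessel cells and in fibroblasts. Lamb1 stands out in myelinating SCs and fibroblasts, and Nid1 in fibroblasts. Col4a2, Lama4 and Lamc1 have taller DPN bars in all 5 gates.

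The laminin chains Lama2, Lama5, Lamb1 and Lamb2 were distributed by cell type in a pattern that both libraries largely shared. Lama5 was at 66.1 CPM and 67.9 CPM in endothelium and at 97.5 CPM and 74.1 CPM in smooth muscle. It did not exceed 14.7 CPM in the other 3 gates. The intervals of endothelium (63.6 to 72.5 CPM) and smooth muscle (64.4 to 84.9 CPM) overlapped in the DPN library, so that their order is not settled. Lama2, the alpha chain of the laminin of muscle and Schwann cells, was highest in fibroblasts (206 CPM and 344 CPM), then in myelinating SCs (44.4 CPM and 76.6 CPM) and SGCs (25.6 CPM and 44.2 CPM), and it was lowest in endothelium (7.02 CPM and 11.5 CPM). Lama4 differed little between classes in the control library, where all 5 gates lay between 19 CPM and 29.1 CPM. In the DPN library fibroblasts were highest for Lama4 and endothelium was lowest, close to smooth muscle.

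The beta chains Lamb1 and Lamb2 took opposite sides. Lamb1 was highest in myelinating SCs, with 237 CPM (218 to 257) in control and 282 CPM (261 to 304) in DPN cells. It was lowest in smooth muscle (22 CPM and 29.3 CPM), with intervals that overlapped those of endothelium. Lamb2 was highest in smooth muscle, with 336 CPM (313 to 361) and 280 CPM (260 to 300), followed with overlapping intervals by fibroblasts (293 CPM and 262 CPM), and lowest in myelinating SCs (29.2 CPM and 29.0 CPM). For each UMI of Lamb1, smooth muscle had 15.3 UMIs of Lamb2 in the control (exact interval 11.5 to 20.7) and 9.54 in the DPN library (7.60 to 12.1), endothelium had 8.01 and 5.58, fibroblasts 1.69 and 1.45, SGCs 0.575 and 0.555, and myelinating SCs 0.123 and 0.103. The order of the classes was the same in both libraries. Such quotients depend on how well each transcript is captured at its 3′ end, so only their differences between cells are read here. Pericytes, the other wall cells of small vessels, resembled smooth muscle with 11 and 9.61 UMIs of Lamb2 for each of Lamb1.

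Of the minor collagen IV chains, Col4a5 was largely found in smooth muscle among the gates, and Col4a4 was spread more widely. Col4a5 was at 67.7 CPM and 90.4 CPM in smooth muscle and at most 13.9 CPM in any other gate. Col4a4 was highest in pericytes, at 158 CPM and 254 CPM, with 75.1 CPM and 127 CPM in smooth muscle, 71.4 CPM and 85.2 CPM in fibroblasts, and at most 3.03 CPM in myelinating SCs. Nid1 was highest in fibroblasts (645 CPM and 587 CPM) and lowest in endothelium (32.5 CPM and 23.8 CPM), and Nid2 was likewise highest in fibroblasts (37.7 CPM and 47.4 CPM).

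The members of low count were accounted for as well. Of the 54 genes, 37 had at least 50 UMIs in at least 1 gate, both libraries together, and 17 had at least 50 UMIs in every gate. The 17 genes below this minimum everywhere included Col4a6, Col6a4, Col7a1, Col17a1, Col27a1, Lama1 and Lamc3. Col6a4 had no UMI in any gate. Lamc3, a gamma chain of laminin, was highest in pericytes, outside the gates, with 10.3 CPM and 41.3 CPM.

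For the comparison of the libraries, a gene was called higher in the DPN library if its ratio of CPM (DPN over control) was at least 1.5 and the exact 95% interval from the UMI counts left out 1, and lower if it was at most 0.667 under the same condition, among genes with at least 50 UMIs in the gate. More genes of the whole table were called higher than lower in every gate, and the counts of the family have to be read against this. All 5 gates come from the same 2 libraries, so a gene called in several gates has not been observed independently in each. In SGCs, 34 of the 54 genes could be compared, of which 19 were called higher and 1 lower, against 27.2% and 2.43% of the 11865 genes compared. In myelinating SCs these were 10 and 1 of 24 (20% and 5.16% of all genes), in endothelium 11 and 1 of 29 (19.6% and 4.97%), in smooth muscle 12 and 0 of 24 (20.1% and 3.89%) and in fibroblasts 12 and 3 of 28 (25.7% and 3.93%). The median log2 ratio of the family was 0.80 in SGCs, 0.24 in myelinating SCs, 0.31 in endothelium, 0.65 in smooth muscle and 0.38 in fibroblasts, where all genes had 0.21, 0.10, 0.08, 0.12 and 0.20. Median-ratio scaling, which sets these medians of all genes to 0, left 17 higher and 3 lower in SGCs, 9 and 1 in myelinating SCs, 10 and 1 in endothelium, 12 and 0 in smooth muscle, and 8 and 4 in fibroblasts. Under this scaling 18.6%, 15.7%, 16.5%, 15.9% and 17.1% of all genes were called higher in these gates, in the same order, and 7.91%, 9.28%, 7.01%, 7.29% and 10.4% lower. With cells of more than 1 gate left out, endothelium had 9 members higher and 3 lower, with Lama2 (1.49, 1.09 to 2.06) and Col5a1 (1.91, 0.948 to 4.09) no longer called, and with the gate limits doubled it had 10 and 3. Of all genes in endothelium, 19.5% were higher and 5.20% lower in the former setting, and 19.5% and 5.11% in the latter. In each, only 1 of the 3 lower members was also lower before the change. The same held for the 3 lower members of SGCs under median-ratio scaling.

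**Figure D3:**
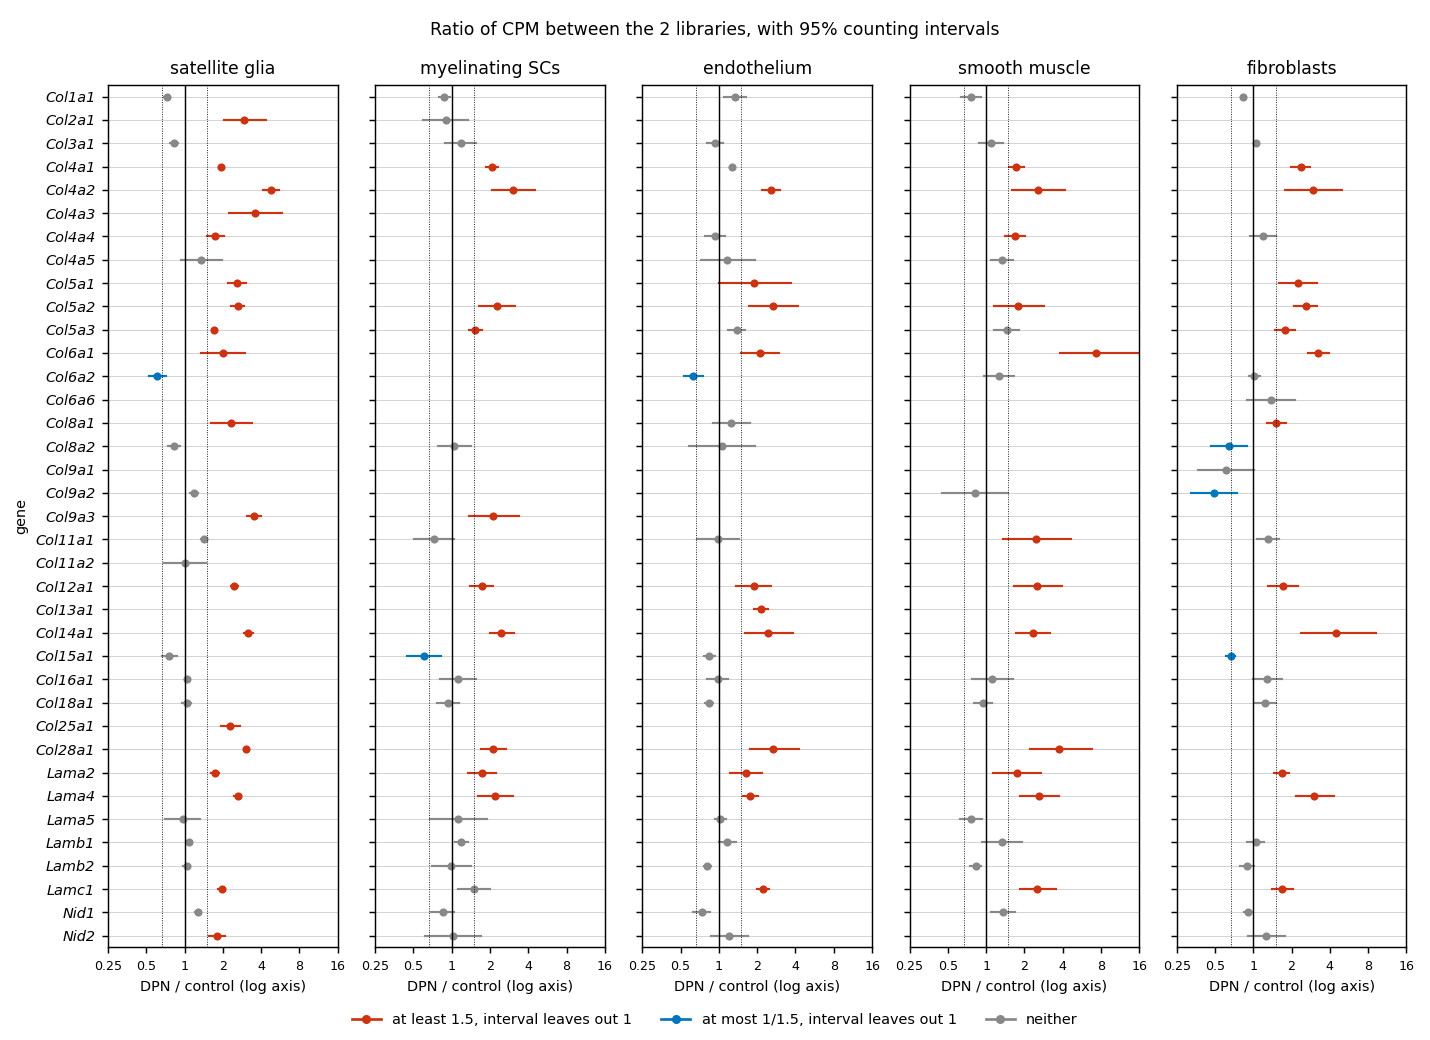
Ratio of CPM (DPN over control, log axis) for 37 genes (rows) in the 5 gates (panels), as points with exact 95% counting intervals, in red where called higher, in blue where called lower and in grey otherwise. Dotted lines mark 1.5 and 0.667. Col4a2, Col5a2, Col12a1, Col14a1, Lama2 and Lama4 are red in all panels, and Lamb1, Lamb2, Nid1, Col16a1 and Col18a1 are grey in all.

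Across the gates, before any change of setting, 25 genes were called in at least 1 gate and 0 were called higher in 1 gate and lower in another. Those called higher in every gate were Col4a2, Col5a2, Col12a1, Col14a1, Lama2 and Lama4. Over the alternative settings given at the end, the ratio of Lama2 fell under 1.5 in each gate, to 1.49 in SGCs and 1.46 in fibroblasts. Those of Col5a2, Col12a1, Col14a1 and Lama4 did so in some gates, in part on few counts. The lowest ratio of Col4a2 was 1.71, in endothelium. That of Col1a1 was 0.624, in SGCs, under the limit for a lower call. Called in no gate before these changes, although each was counted with at least 50 UMIs in all 5, were Lamb1, Lamb2, Nid1, Col1a1, Col3a1, Col16a1 and Col18a1. Chains of the same trimer or network were thus found on both sides of the limit.

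Of the collagen IV chains, Col4a2 was called higher in every gate and Col4a1 in every gate but endothelium, while the minor chains differed between gates. Col4a1 had 111 CPM in control and 216 CPM in DPN SGCs, a ratio of 1.95 (1.88 to 2.01). In myelinating SCs it had 222 CPM and 462 CPM, a ratio of 2.08 (1.87 to 2.31), which made these cells the gate with most Col4a1 in the DPN library, whereas endothelium was the highest gate in the control. Smooth muscle (1.73, 1.5 to 1.99) and fibroblasts (2.36, 1.98 to 2.81) were also called. Endothelium had 265 CPM and 338 CPM, a ratio of 1.28 (1.22 to 1.34) that was not called.

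The ratio of Col4a2, the partner chain of Col4a1 in the same trimer, was larger than that of Col4a1 in each gate. It went from 4.33 CPM to 20.7 CPM in SGCs (ratio 4.78, 4.13 to 5.54), from 15.6 CPM to 47.6 CPM in myelinating SCs (3.04, 2.08 to 4.55) and from 18.1 CPM to 46.3 CPM in endothelium (2.56, 2.17 to 3.03). Smooth muscle (2.55, 1.61 to 4.18) and fibroblasts (2.92, 1.79 to 5.01) rest on 25 and 20 control UMIs. Each UMI of Col4a2 was accompanied in SGCs by 25.6 UMIs of Col4a1 in the control (22.6 to 29.2) and by 10.4 in the DPN library (9.64 to 11.3), and in endothelium by 14.6 (12.6 to 17.1) and 7.31 (6.73 to 7.96). In the other 3 gates the intervals of the libraries overlapped. Of the minor chains, Col4a3 was called higher in SGCs (27 and 56 UMIs, ratio 3.57) and Col4a4 in SGCs (1.74, 1.5 to 2.03) and smooth muscle (1.69, 1.40 to 2.03). Col4a4 was not called in endothelium (0.930, 0.782 to 1.11) or fibroblasts (1.19, 0.941 to 1.52). Col4a5 was not called in any of the 3 gates where it was compared (1.17 to 1.35).

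Among the laminins, the alpha chains 2 and 4 and the gamma 1 chain were higher in the DPN library. Lama4 had 25.8 CPM and 67.3 CPM in SGCs (ratio 2.61, 2.45 to 2.79), 24.9 CPM and 55 CPM in myelinating SCs (2.20, 1.61 to 3.05), 27.3 CPM and 48.3 CPM in endothelium (1.77, 1.54 to 2.04), 19 CPM and 49.8 CPM in smooth muscle (2.62, 1.86 to 3.77), and 29.1 CPM and 87.7 CPM in fibroblasts (3.02, 2.17 to 4.27). The gates of the 2 libraries did not overlap for Lama4, whose lowest DPN level (48.3 CPM) was above its highest control level (29.1 CPM). The ratios of Lama2 lay closer together, between 1.63 in endothelium and 1.74 in smooth muscle.

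Lamc1, the gamma chain of most laminins, had 29.5 CPM and 57.8 CPM in SGCs (ratio 1.96, 1.84 to 2.10), 38.1 CPM and 84.5 CPM in endothelium (2.22, 1.98 to 2.49), 22 CPM and 55.8 CPM in smooth muscle (2.53, 1.84 to 3.55) and 104 CPM and 176 CPM in fibroblasts (1.69, 1.40 to 2.04). Over the alternative settings given at the end, the lowest ratio of Lamc1 in fibroblasts was 1.47, under the limit. In myelinating SCs its ratio of 1.49 (1.13 to 1.99) stayed just under the limit. The beta chains that pair with it had ratios near 1, from 1.04 to 1.33 for Lamb1 and from 0.812 to 1.04 for Lamb2. In endothelium, where Lamb2 had 2139 and 2286 UMIs, its ratio was 0.812 (0.765 to 0.862). For each UMI of Lamb2, endothelium had 0.185 (control) and 0.506 (DPN) UMIs of Lamc1, smooth muscle 0.0655 and 0.199, and SGCs 0.607 and 1.15, with intervals of the libraries that did not overlap. Lama5 was not called in the 4 gates where it could be compared (0.760 to 1.12).

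The nidogens were mostly not called. Nid1 had 79.3 CPM and 100.4 CPM in SGCs (ratio 1.27, 1.21 to 1.32), 60.8 CPM and 82.2 CPM in smooth muscle (1.35, 1.09 to 1.68), 32.5 CPM and 23.8 CPM in endothelium (0.733, 0.628 to 0.856) and 645 CPM and 587 CPM in fibroblasts (0.910, 0.838 to 0.989). Nid2 was called in SGCs alone (6.19 CPM and 11.1 CPM, ratio 1.80, 1.55 to 2.09), with ratios of 1.02 to 1.26 in the other 3 gates where it was compared.

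Of the fibrillar chains, those of collagen V were called higher in 3 to 5 gates each, and Col1a1 and Col3a1 were called in none. Col5a2, which lies beside Col3a1 in the genome, was called in all 5 gates, with 8.81 CPM and 23.1 CPM in SGCs (ratio 2.62, 2.34 to 2.93), 24.9 CPM and 56.3 CPM in myelinating SCs (2.26, 1.65 to 3.12), and 76.7 CPM and 198 CPM in fibroblasts (2.59, 2.11 to 3.20). Endothelium (2.65, 1.71 to 4.22) and smooth muscle (1.79, 1.16 to 2.84) had under 35 control UMIs each. The ratio of Col3a1 ranged from 0.828 in SGCs to 1.18 in myelinating SCs, and in fibroblasts it was 1.06 (1.02 to 1.10). Col5a3 was called in SGCs (1.69, 1.65 to 1.73), myelinating SCs (1.54, 1.38 to 1.72) and fibroblasts (1.78, 1.48 to 2.14), and Col5a1 in SGCs (2.57, 2.18 to 3.03), fibroblasts (2.23, 1.60 to 3.16) and endothelium (15 and 37 UMIs, ratio 1.87, 1.0 to 3.68). Over the alternative settings given at the end, the ratio of Col5a3 fell under 1.5 in SGCs (1.46) and myelinating SCs (1.43). In fibroblasts its lowest ratio was 1.55. With cells thinned to 1000 UMIs, which leaves few counts, the endothelial ratio was 0.661 for Col5a1 (0.0886 to 4.94) and 0.992 for Col5a2 (0.235 to 4.78). Col1a1 was lower in the DPN library in SGCs (0.723, 0.691 to 0.757), myelinating SCs (0.877, 0.794 to 0.969), smooth muscle (0.760, 0.631 to 0.916) and fibroblasts (0.830, 0.797 to 0.864). Before any change of setting, it was in none of them lower by enough to be called. In endothelium it was above 1 without a call (1.33, 1.09 to 1.64). Over the alternative settings, the lowest ratio of Col1a1 in SGCs was 0.624, under the limit for a lower call. In myelinating SCs, smooth muscle and fibroblasts the lowest ratios were 0.770, 0.689 and 0.723, above that limit. Col11a1 was called in smooth muscle only (16 and 48 UMIs, ratio 2.45, 1.37 to 4.63), and Col2a1 in SGCs only (46 and 79 UMIs, ratio 2.96, 2.03 to 4.35).

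The fibril-associated collagens XII and XIV and the nerve collagen XXVIII were called wherever they were compared. Col14a1 had 15.3 CPM and 48.3 CPM in SGCs (ratio 3.16, 2.91 to 3.44), 51.6 CPM and 127 CPM in myelinating SCs (2.46, 1.98 to 3.06), 24.6 CPM and 57.2 CPM in smooth muscle (2.32, 1.71 to 3.20), and 7.27 CPM and 32.4 CPM in fibroblasts (4.46, 2.36 to 9.30). Col12a1 went from 31.9 CPM to 78.4 CPM in SGCs (2.46, 2.32 to 2.61), with ratios of 1.71 to 2.54 in the other gates. Col28a1 was called in the 4 gates where it was compared, at 3.07 (2.91 to 3.23) in SGCs, 2.13 (1.70 to 2.69) in myelinating SCs, 2.69 (1.75 to 4.25) in endothelium and 3.75 (2.20 to 6.77) in smooth muscle. In all gates its DPN level was above its control level. Col9a3 was called in SGCs (7.05 CPM and 24.8 CPM, 3.51, 3.12 to 3.96) and myelinating SCs (2.11, 1.36 to 3.36). Its trimer partner Col9a2 was not called in SGCs (1.19, 1.11 to 1.28) and was called lower in fibroblasts (36.4 CPM and 17.9 CPM, 0.492, 0.322 to 0.746). Col16a1 had ratios of 0.978 to 1.29 in the 5 gates.

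The neighbouring genes of collagen VI, whose chains join in 1 trimer, went apart. Col6a1 had 82.6 CPM and 268 CPM in fibroblasts (ratio 3.24, 2.67 to 3.96), where Col6a2 had 399 CPM and 406 CPM (1.02, 0.919 to 1.13). In smooth muscle Col6a1 had 10 and 89 UMIs (7.28, 3.78 to 15.7) and Col6a2 had 95 and 147 (1.27, 0.971 to 1.66). Endothelium had Col6a1 at 4.62 CPM and 9.65 CPM (2.09, 1.49 to 2.97), and Col6a2 at 29.5 CPM and 18.6 CPM (0.631, 0.533 to 0.748), which was called lower. SGCs had Col6a1 at 2.0 (1.34 to 3.0, on 49 and 57 UMIs) and Col6a2 at 0.613 (0.527 to 0.710). After thinning, on few counts, the endothelial ratios were 0.793 for Col6a1 (0.202 to 3.29) and 1.19 for Col6a2 (0.521 to 2.89), and Col6a1 in SGCs had 0.686 (0.111 to 3.21). Each UMI of Col6a2 was thus accompanied in fibroblasts by 0.207 (control) and 0.658 (DPN) UMIs of Col6a1, and in pericytes, which were in none of the gates, by 0.228 (0.164 to 0.312) and 0.594 (0.484 to 0.727).

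Other collagens were called in a few gates. Col13a1 was higher in endothelium (30.9 CPM and 66.5 CPM, ratio 2.15, 1.90 to 2.45). Col25a1, a transmembrane collagen of neurons and muscle, was higher in SGCs (3.84 CPM and 8.80 CPM, 2.29, 1.92 to 2.74). Col8a1, a short chain collagen of vessels, was higher in SGCs (53 and 72 UMIs, 2.34, 1.62 to 3.4) and fibroblasts (1.51, 1.27 to 1.80), while Col8a2 was lower in fibroblasts (0.645, 0.467 to 0.890). Col15a1 was lower in fibroblasts (852 CPM and 566 CPM, 0.665, 0.616 to 0.718) and in myelinating SCs (47.8 CPM and 29.0 CPM, 0.607, 0.442 to 0.829), and below 1 without a call in endothelium (0.840) and SGCs (0.760). Its relative Col18a1 ranged from 0.834 in endothelium to 1.24 in fibroblasts. In cells with under 10% Mt- counts, which left 216 control and 127 DPN SGCs, the ratios in SGCs were 0.976 for Col25a1, 0.976 for Col2a1, 0.163 for Col4a4 and 0.732 for Col8a1, each with an interval that held 1, and Col15a1 in myelinating SCs had 1.02 (0.530 to 1.97).

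The calls moved with the length of the genes. Over all genes compared, those with a gene length of at least 100 kb (RefSeq, GRCr8) were called higher in 49.3% of cases in SGCs, 45.1% in myelinating SCs, 39.9% in endothelium, 42.8% in smooth muscle and 50.3% in fibroblasts. For genes under 30 kb these shares were 15.4%, 9.26%, 9.84%, 10.3% and 13.7%, and for genes of 30 to 100 kb 37%, 31.2%, 27.4%, 29.8% and 39.3%. Many members of the family are long, 29 of the 54 having at least 100 kb. Of these long members, 13 of 17 were called higher in SGCs, 8 of 12 in myelinating SCs, 10 of 16 in endothelium, 10 of 12 in smooth muscle and 10 of 14 in fibroblasts. Of the members under 30 kb, 3 of 9 were called higher in SGCs, 1 of 5 each in myelinating SCs, endothelium and smooth muscle, and 1 of 6 in fibroblasts, which are shares above those of all genes of this length on very few genes.

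**Figure D4:**
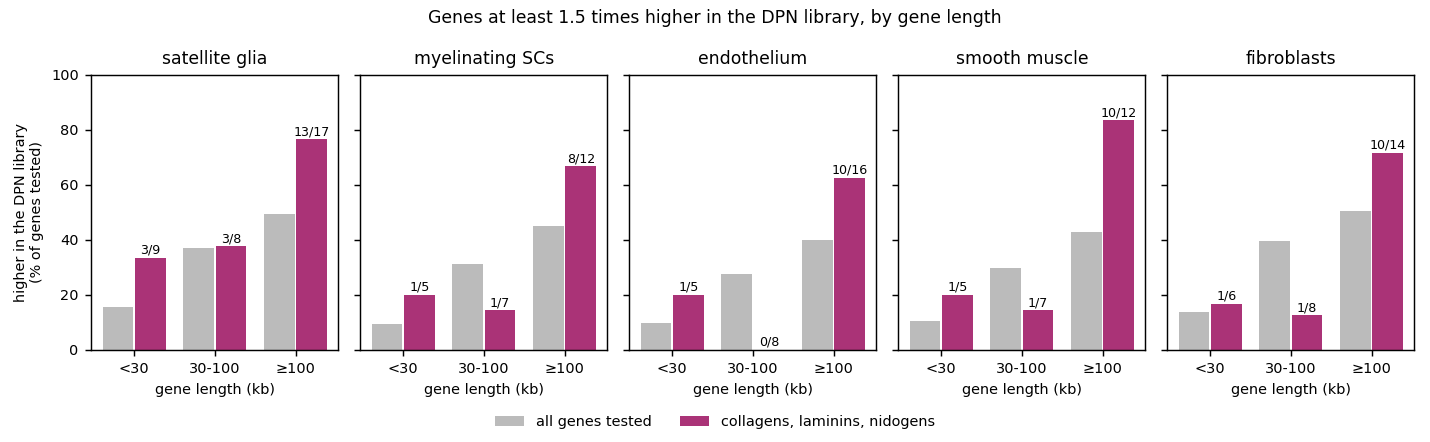
Share of genes called higher in the DPN library (vertical axis, % of genes compared) by gene length class (horizontal axis, kb) in the 5 gates, for all genes in grey and for the collagens, laminins and nidogens in purple, with their counts above the bars. The grey bars rise from 9.26% to 15.4% of genes under 30 kb to 39.9% to 50.3% of those of at least 100 kb, and the purple bars are tallest at that length too.

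Among members of 30 to 100 kb, 3 of 8 were called higher in SGCs, 1 of 7 in myelinating SCs, 0 of 8 in endothelium, 1 of 7 in smooth muscle and 1 of 8 in fibroblasts, shares that outside SGCs were below those of all genes of this length. The median log2 ratio of members of at least 100 kb was 1.23 in SGCs, 0.92 in myelinating SCs, 0.86 in endothelium, 1.26 in smooth muscle and 0.77 in fibroblasts, and that of all genes of this length 0.58, 0.58, 0.46, 0.54 and 0.66. The 6 genes called higher in every gate are from 118 kb (Col12a1) to 648 kb (Lama2) long. Lamb2 (12.2 kb), Col1a1 (17 kb), Col3a1 (35.9 kb), Col16a1 (54.4 kb), Lamb1 (67.3 kb) and Nid1 (73.4 kb), which were called in none, are shorter, and Col18a1 (108 kb) is not. Long genes not called higher in any gate included Col15a1 (106 kb) and Col4a5 (204 kb), and short genes that were included Col6a1 (18.4 kb) and Col9a3 (22.7 kb). The part of gene length in the ratios was not tested.

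Shares of cells gave a further view of the same counts at equal depth. When each cell was thinned to 1000 UMIs, Col4a1 was seen in 10.4% of control SGCs (exact binomial interval 9.53% to 11.4%) and 19.4% of DPN SGCs (18% to 20.9%), and in 23.1% and 37.0% of myelinating SCs (18.7% to 27.9% and 32.7% to 41.5%). Without thinning these shares were 73.2% and 83.7% in SGCs, at a median of 13783 UMIs and 11145 UMIs per cell. In thinned macrophages, with a median of 4846.5 UMIs and 4308 UMIs before thinning, Col4a1 was in 0.610% and 1.35% of cells. Lama4 was found in 2.64% of control SGCs and 6.87% of DPN SGCs, and Col28a1 in 3.26% and 11.2%. Lamb1 differed less, with 8.08% and 9.46% of SGCs, as did Lamb2 with 4.91% and 4.48%. No cell was left out by the thinning, since all had at least 1000 UMIs.

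Enzymes and chaperones of collagen synthesis were counted as a list of 32 genes, of which 29 had a symbol. P4ha1, a subunit of the prolyl hydroxylase that stabilises the triple helix, was called higher in all 5 gates, with 72.7 CPM and 130 CPM in SGCs (ratio 1.79, 1.72 to 1.87), 76.1 CPM and 117 CPM in myelinating SCs (1.54, 1.27 to 1.87), and 54.9 CPM and 121 CPM in fibroblasts (2.20, 1.72 to 2.84). Its ratios in endothelium and smooth muscle were 1.60 and 1.64. Most of the list was not called. In SGCs 5 of 24 genes were higher and 2 lower, in myelinating SCs 1 and 0 of 11, in endothelium 4 and 3 of 21, in smooth muscle 2 and 1 of 16, and in fibroblasts 3 and 1 of 19. Of all genes, 27.2%, 20%, 19.6%, 20.1% and 25.7% were called higher in these gates, in the same order. The counts of higher genes thus do not set this list apart. Called lower were 2.43%, 5.16%, 4.97%, 3.89% and 3.93% of all genes. The lower genes of the list lay above these shares in all gates but myelinating SCs, on very few genes. The higher genes of SGCs included Colgalt2, a collagen galactosyltransferase (2.95), and Sec23a of the secretory coat (1.63 CPM and 4.95 CPM, ratio 3.03). Pcolce, the enhancer of the protease that trims fibrillar procollagen, was lower in fibroblasts (703 CPM and 433 CPM, ratio 0.617, 0.566 to 0.673), SGCs (0.629) and endothelium (0.366). Lox, which cross-links collagen, was lower in smooth muscle (88.0 CPM and 52.2 CPM, ratio 0.593, 0.477 to 0.737). The collagen chaperone Serpinh1 was level in myelinating SCs (1.0) and smooth muscle (0.972), and the foldase Ppib had 585 CPM and 486 CPM in SGCs (0.831).

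The partners of these chains in the matrix were a list of 18 genes with 17 symbols. There were 2 higher and 0 lower of 17 in SGCs, 1 and 3 of 8 in myelinating SCs, 3 and 3 of 13 in endothelium, 1 and 2 of 12 in smooth muscle, and 1 and 2 of 12 in fibroblasts, to be read against the same shares of all genes (19.6% to 27.2% higher and 2.43% to 5.16% lower). In fibroblasts, Fn1, the adhesion protein fibronectin, went from 642 CPM to 1702 CPM (ratio 2.65, 2.47 to 2.84). Sparc, a collagen binding protein, had 2327 CPM and 2328 CPM in myelinating SCs. Endothelium had lower counts in the DPN library of Bgn, a small proteoglycan (112 CPM and 45.4 CPM, 0.404, 0.366 to 0.446), and of Tinagl1, a basement membrane protein of vessels (316 CPM and 186 CPM, 0.591, 0.561 to 0.622). Tinagl1 was also lower in smooth muscle (397 CPM and 263 CPM, 0.663, 0.601 to 0.731). Fbln2, a fibulin, was lower in myelinating SCs (212 CPM and 105 CPM, 0.496, 0.424 to 0.579). Dcn was higher in endothelium (24.5 CPM and 96.7 CPM, 3.94), where the whole fibroblast list had 103 CPM and 325 CPM with none of 8 markers at 0. The part of this fibroblast RNA in the endothelial ratios of fibroblast-rich members such as Col5a2, Col6a1 and Lama2 was not tested.

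Receptors of laminin and collagen formed a list of 20 genes, all with a symbol. Fibroblasts had 6 of 12 called higher and 0 lower, where 25.7% of all genes were called higher, among them Cd44 (21.2 CPM and 91.0 CPM, ratio 4.30, 2.96 to 6.45), the laminin integrin chains Itga6 (3.93, 2.68 to 5.95) and Itgb4 (128 CPM and 265 CPM, 2.08, 1.77 to 2.45). That share ran from 13.7% of genes under 30 kb to 50.3% of those of at least 100 kb. The part of gene length in this list was not tested. SGCs had 2 and 0 of 18, myelinating SCs 1 and 0 of 13, endothelium 1 and 1 of 18, and smooth muscle 2 and 0 of 16. In these gates, 27.2%, 20%, 19.6% and 20.1% of all genes were called higher and 2.43%, 5.16%, 4.97% and 3.89% lower. Itgb1, the beta chain shared by most of these integrins, was called in SGCs (192 CPM and 314 CPM, 1.63, 1.59 to 1.68) and fibroblasts (243 CPM and 495 CPM, 2.04), and it was at 1.42 in myelinating SCs, 1.44 in endothelium and 1.48 in smooth muscle. Itga1, a collagen integrin, was called in smooth muscle (52.2 CPM and 84.0 CPM, 1.61, 1.29 to 2.02). Bcam, a receptor of laminin alpha 5, had 926 CPM and 695 CPM in smooth muscle (0.75, 0.705 to 0.798). The median log2 ratio of the receptors was 0.26 in SGCs, 0.19 in myelinating SCs, −0.20 in endothelium, 0.25 in smooth muscle and 0.56 in fibroblasts.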

How the data were processed

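Single cells of rat DRGs were measured with the 10x Genomics 3′ v3 assay in 1 control and 1 DPN library, each of 5 pooled rats. The authors ran Cell Ranger 3.1.0 with STAR and deposited raw UMI counts for each gene and barcode. A down-sampling of reads is mentioned in the methods without saying whether it was applied, and no build of the genome is named in the sources at hand. Gene lengths and promoter windows are those of RefSeq GRCr8 and were matched by symbol, with a length for at least 90.6% of the genes compared in each gate.

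Counts of identifiers with the same symbol were added. Cells needed at least 1000 UMIs and under 20% Mt- counts. Gates per 10000 UMIs were Fabp7 and Tyrp1 at least 12, Prx, Mag and Cldn19 at least 5, Cldn5, Flt1 and Cdh5 at least 10, Myh11 at least 2, and Lum at least 5. Outside them, macrophages (C1qa, C1qb and C1qc at least 10) and pericytes (Rgs5, Kcnj8 and Abcc9 at least 10, Myh11 at 0) were used for comparison. Cells with Scn7a at least 5 (non-myelinating SCs) were not compared between libraries, since the gate gene itself differed between them. UMIs were summed per gate and library and given as CPM. Levels carry exact Poisson, shares Clopper-Pearson and ratios exact conditional binomial 95% intervals. No test was made. Likely doublets were not removed by a caller. The library totals of 121101966 and 115409375 UMIs, and the UMIs of each gate, set the width of the intervals.

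Named are every called member, the members with most UMIs in a gate, all chains of collagens I, III, IV, V and VI, the laminins and the nidogens, neighbouring genes, and of the pathway lists those with the 3 highest and 3 lowest ratios among genes with at least 200 UMIs. Some results under this rule are not reported here. The members, gene lists and rules were chosen with earlier results of these data known. Alternatives changed the gates, the Mt- limit, the scaling, the depth of cells and the minimum of UMIs. Python 3.11.15, numpy 2.4.6, scipy 1.17.1, pandas 2.3.3 and matplotlib 3.10.9 were used, and the calls were tested on simulated data.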

Additional observations from a re-analysis of the deposited data

Results flagged for a closer look

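Of the genes not called in any gate or in few, 5 had intervals on opposite sides of 1 in different gates. The difference between gates was not tested in any of them. Col1a1 was at 1.33 (1.09 to 1.64) in endothelium, where its level was no higher than in macrophages, and at 0.723 in SGCs. Col3a1 was at 1.06 (1.02 to 1.10) in fibroblasts and 0.828 in SGCs. Col9a2 was at 1.19 in SGCs and 0.492 in fibroblasts. Col18a1 was at 1.24 (1.03 to 1.51) in fibroblasts and 0.834 in endothelium. Nid1 was at 1.35 in smooth muscle and 0.733 in endothelium.

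In barcodes outside the filters (1213 control and 2155 DPN barcodes, not used above), the UMIs of all 54 genes together came to 1109 CPM in the control and 1320 CPM in the DPN library, a ratio of 1.19 (1.16 to 1.22).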

How the results depend on the processing

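No paired analysis was possible because the libraries carry no numbers that pair them. With a Mt- limit of 10%, which left 216 control and 127 DPN SGCs and 78 and 92 myelinating SCs, 10 genes of the family were called in SGCs (20 at 20%) and 4 in myelinating SCs (11), while Col2a1 (0.976), Col4a4 (0.163), Col8a1 (0.732) and Col25a1 (0.976) in SGCs and Col15a1 (1.02) in myelinating SCs crossed 1. With cells thinned to 1000 UMIs, 5 were called in endothelium (12 without) and 7 in fibroblasts (15), and smooth muscle had 8 (12), while Col6a1 in SGCs (0.686) and Col5a1 (0.661), Col5a2 (0.992), Col6a1 (0.793) and Col6a2 (1.19) in endothelium crossed 1 on few counts. Of all genes compared after thinning, 10.1% were called higher and 3.54% lower in endothelium. In fibroblasts these shares were 8.51% and 2.48%, and in smooth muscle 9.55% and 3.42%. With at least 200 UMIs in place of 50, fewer genes were compared and 6, 7 and 4 were called in myelinating SCs, endothelium and smooth muscle. Median-ratio scaling lowered the share of all calls that were higher from 91.8% to 70.1% in SGCs, from 79.5% to 62.8% in myelinating SCs, from 79.8% to 70.2% in endothelium, from 83.8% to 68.6% in smooth muscle and from 86.7% to 62.2% in fibroblasts. Of 90 ratios named, this scaling moved 23 beyond their intervals without taking a called one across 1, the 10% limit moved 28 and thinning moved 43, the most of any setting, both besides those that crossed 1. Col4a3 in SGCs under the 10% limit and Col11a1 in smooth muscle after thinning had no control UMI and no ratio. Cells of 5000 to 20000 UMIs, a setting chosen after seeing the data, moved 7 and gave 20, 12, 12, 9 and 14 called members in SGCs, myelinating SCs, endothelium, smooth muscle and fibroblasts. Of all genes compared in these cells, 27.4%, 20.3%, 18.9%, 18.4% and 25.1% were called higher, in the same order. Called lower were 2.27%, 6.13%, 5.49%, 4.76% and 4.50%. Stricter gates, cells of more than 1 gate left out, the mean over cells and Mt- counts left out of the totals moved at most 7 ratios and reversed none, but leaving out cells of more than 1 gate turned the 11 higher and 1 lower members of endothelium into 9 and 3, and doubled gate limits into 10 and 3. Of all genes in endothelium, 19.5% were higher and 5.20% lower in the former setting, and 19.5% and 5.11% in the latter. How many members could be compared under each setting is not given here. The counts of Col4a3, Col5a1, Col6a1 and Col11a1 below 100 UMIs limit what can be read from them in single gates.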
